A study of Homo sapiens with 12 samples.

Results

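The comparison set all 4 ribosome profiling libraries of H9 cells against the 4 HEK293T libraries that received a control siRNA, 8 of the 12 libraries of the series. Membership followed the labels alone. H9 is an established line of human embryonic stem cells, and its libraries carried either a control shRNA or an shRNA against eIF2A. Their titles name no immunoprecipitation (IP), and arsenite is not named in their labels. HEK293T is an established line derived from human embryonic kidney that carries the SV40 large T antigen. Its 4 libraries were all labelled with sodium arsenite, an oxidative stressor, and with an IP of mRNA held either by CBP80, a subunit of the nuclear complex that binds mRNA caps, or by eIF4E, which binds caps in the cytoplasm. By their titles, both lines had 1 library of each kind in set 1 and in set 2. Cell line, arsenite, IP and the use of siRNA or shRNA therefore cannot be told apart in any difference given here.

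Ribosome profiling counts the mRNA fragments protected by ribosomes, so a gene's footprints follow both its mRNA level and how heavily that mRNA is translated. Embryonic stem cells are held in the pluripotent state by a small network of transcription factors, grow as an epithelial sheet, and keep the regulators of later lineages, such as the HOX genes, silent under Polycomb repression. The nuclear cap-binding complex binds new mRNA and can support its first rounds of translation, and eIF2A is a protein able to bring initiator tRNA to the ribosome. The study's title names the nuclear cap-binding complex, stress-resistant protein synthesis and stem cell proliferation as its subjects; the contrast of the lines describes the cells in which it worked.

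Libraries of 1 set and line were nearly identical and were summed, which left 2 summed libraries a line (n = 2 against 2 in every test below). Within a set, counts of the libraries differed by a chi-square per degree of freedom of 1.008 and 1.028 in HEK293T and 1.041 and 1.074 in H9, where 1 is sampling noise, against 2.674 to 4.248 between sets of 1 line. The H9 values and the 1.028 of HEK293T set 2 lay slightly above noise, and those libraries were still summed. Summed libraries held 3455844 and 2449126 coding reads in H9 and 11375636 and 9500566 in HEK293T control. Counts of rows that name no gene, mostly reads with more than 1 alignment, made up 96.2 to 96.5% of all counts in H9 and 88.1 to 89.5% in HEK293T control. Whether the sets came from separate cultures is not in the labels, so the tests use a spread between summed libraries that may be technical. The names of the deposited H9 tables carry 1 letter for both libraries titled set 1 and another for both titled set 2. What the letters stand for is not given, so whether the H9 sets differ by set, as titled, or by shRNA could not be settled. All 4 H9 libraries enter the comparison of the lines under either reading, but the spread between the H9 sets could then include an effect of the shRNA. Levels below are counts per 1000000 coding reads (CPM) scaled by TMM, given for set 1 and then set 2, and a log2 difference is H9 minus HEK293T with its standard error.

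By the titles, EIF2A was not lower in the libraries labelled eIF2A shRNA; it differed between the sets, which is also how the table names divide. EIF2A stood at 98.0 CPM in the control shRNA library and 104.5 in the library labelled eIF2A shRNA of set 1, and at 58.5 and 65.5 CPM in those of set 2. Summed, EIF2A read 102 and 61.2 CPM in H9 and 86.6 and 88.6 in HEK293T, and the lines overlapped (log2 difference -0.09 ± 0.18, SE; adjusted p = 0.661). NCBP1, which encodes CBP80, read 187 and 211 CPM in H9 and 126 and 107 in HEK293T and was higher in H9 (log2 difference 0.77 ± 0.14, SE; adjusted p = 2.63e-05). EIF4E read 6.86 and 8.23 CPM in H9 and 7.04 and 7.93 in HEK293T, and its libraries overlapped (log2 difference -0.00 ± 0.29, SE; adjusted p = 0.995).

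Most genes differed between the lines. Of 12617 genes with enough reads to be tested, 9481 (75.1%) had an adjusted p under 0.05, with 4667 of them higher (37%) and 4814 lower (38.2%) in H9, by the quasi-likelihood fit of edgeR. The H9 libraries lay wholly above those of HEK293T control in 42.6% of the genes tested and wholly below in 44.3%. Because that share is so large, gene groups are counted below by genes that also differed at least 2-fold, which held for 3218 genes higher (25.5%) and 3281 genes lower (26%). Every count of a gene group below is to be read against these shares. At least 4-fold, 1645 genes were higher and 1469 lower, and at least 16-fold, 760 and 426. Across the genes tested, log2(CPM + 1) correlated at r = 0.718 between the means of the lines, against 0.983 between the sets of H9 and 0.995 between those of HEK293T control. The scatter of mean CPM in both lines shows genes spread widely about the diagonal, with other genes at or near 0 reads in 1 line. The median absolute log2 difference was 1.05.

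**Figure D1:**
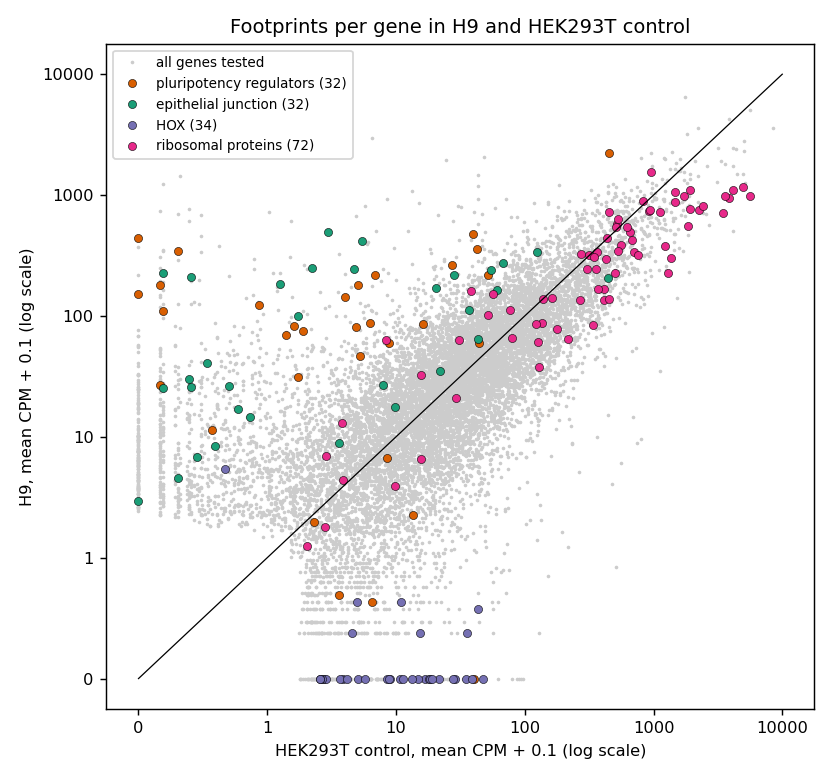
Mean TMM-scaled CPM per gene in HEK293T control (x axis) and H9 (y axis), both plus 0.1 on log scales, for the 12617 genes tested, with 4 gene groups coloured; the line marks equal levels. Pluripotency regulators and epithelial junction genes lie mostly above the line, HOX genes along the bottom at or near 0 reads in H9, and ribosomal protein genes mostly below the line at high levels.

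Of the 5 markers of pluripotent stem cells given for H9, 4 could be measured and all 4 were higher in H9. SOX2, a transcription factor of the pluripotency network, read 238 and 271 CPM in H9 and 16.5 and 22.3 in HEK293T. DNMT3B, a de novo DNA methyltransferase, read 2086 and 2042 CPM in H9 and 44.1 and 51.6 in HEK293T. The libraries of H9 lay above those of HEK293T for both genes, with log2 differences of 3.71 ± 0.17 (SE) and 5.43 ± 0.16 (SE) (adjusted p = 6.55e-17 and 2.2e-21). LIN28A, an RNA-binding protein that blocks maturation of let-7 microRNAs, read 485 and 363 CPM in H9 and had no read in HEK293T control, which makes it at least 2883-fold higher in H9, against a floor of 3 reads over the summed libraries of a line. L1TD1, an RNA-binding protein derived from a transposon, read 1235 and 1212 CPM in H9 and had a single read in HEK293T control, a ratio of 24372 with a 95% counting interval of 4373 to 962760.0. These floors and intervals cover counting error only.

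The fifth marker, POU5F1, the transcription factor OCT4, was listed at 0 in all 12 libraries, and this 0 is not a level. Of 163 neighbouring genes around it on chromosome 6, in the order of RefSeq's table, 139 were listed at 0 in all 12 libraries (85.3%), against 6.76% of the other 829 genes of the chromosome. The stretch holds genes used by nearly every cell, such as TUBB, a tubulin, and RPS18, a ribosomal protein. The cause was not tested. Among heat shock genes, HSPA1A and HSPA1B lie there too and could not be read.

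The regulators of the pluripotent state followed the markers. Of 34 listed transcription and chromatin regulators, 32 were tested, and 25 were higher and 4 lower in H9 by at least 2-fold, against 25.5% and 26% of all genes; the median log2 difference was 3.96, against -0.03 over all genes. DPPA4, a chromatin protein of early embryos, read 439.6 and 450.1 CPM in H9 with no read in HEK293T (at least 2943-fold higher), and VRTN, a DNA-binding protein, read 159 and 144 CPM with none in HEK293T (at least 1011-fold higher). ZFP42, or REX1, a zinc finger protein of the same state, read 353 and 339 CPM in H9 and 0.0914 and 0.112 in HEK293T. ZSCAN10, a zinc finger partner of the network, read 182 and 176 CPM in H9 against 1 read in all in HEK293T, and PRDM14, which restrains differentiation, read 109 and 109 CPM against 1 read in all. The 2 summed libraries of H9 agreed closely for each of these. Their distance from HEK293T follows from naming the genes of largest difference.

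NANOG, a core factor of the network, was outside the rule for named genes and was chosen after its values were seen. It read 30.2 and 23.5 CPM in H9 against 1 read in all in HEK293T, a ratio of 546 with a 95% counting interval of 96.7 to 21683. The 4 regulators that were lower in H9 were TBX3, KLF4, KLF5 and ESRRB. Of these, TBX3, a T-box repressor also used in limb and kidney formation, read 39.7 and 41.5 CPM in HEK293T and had no read in H9 (at least 83.6-fold lower). KLF4, KLF5 and ESRRB are factors of the naive, earlier form of pluripotency, and of them KLF5 read 0.823 and 3.53 CPM in H9 and 13.9 and 13 in HEK293T.

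**Figure D2:**
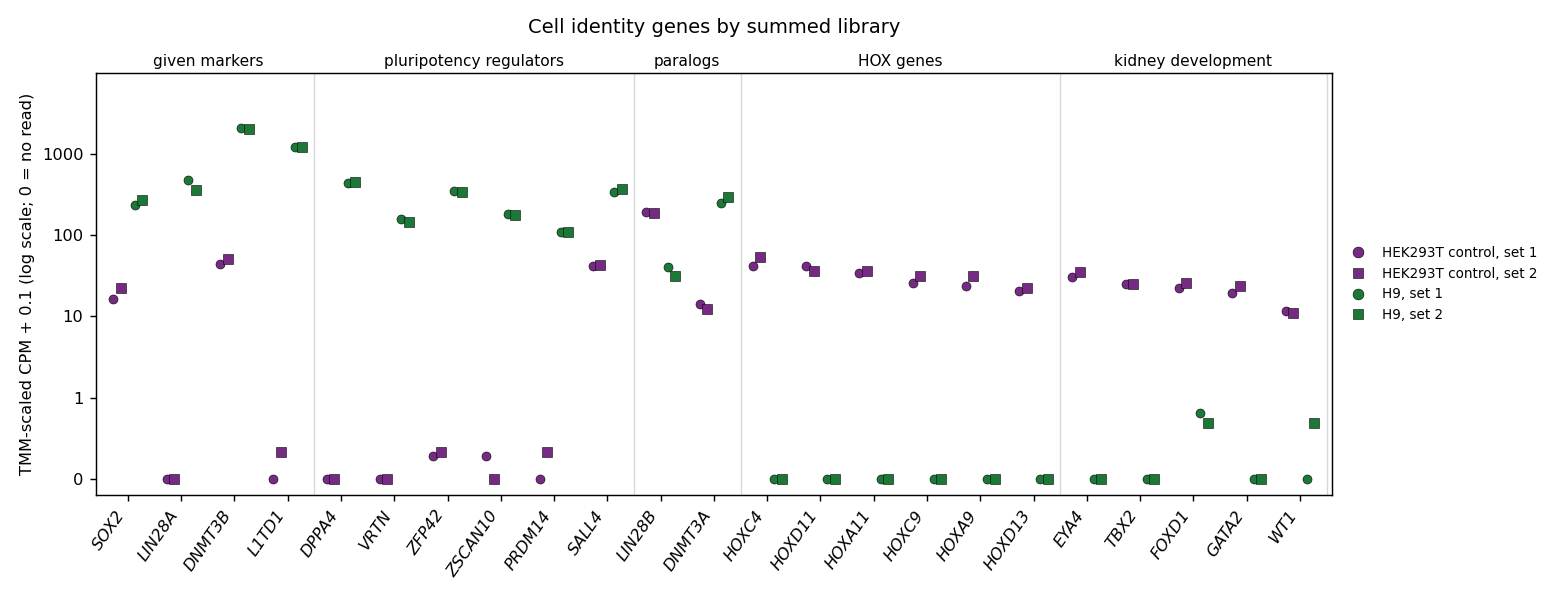
TMM-scaled CPM plus 0.1 (y axis, log scale) of cell identity genes in each of the 4 summed libraries, HEK293T control in purple and H9 in green, circles for set 1 and squares for set 2. The groups of points do not overlap for any gene shown: markers and pluripotency regulators are higher in H9, while LIN28B, the HOX genes and the kidney development genes are higher in HEK293T control. Over all genes tested, H9 lay wholly above in 42.6% and wholly below in 44.3%.

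Promoters of 2 of these genes held the letters that OCT4 is known to bind, which are shown because POU5F1 itself could not be read. Sequences are RefSeq's for build GRCh38.p14, plus strand, upstream of the transcription start, with matches to ATGCAAA, the first 7 letters of the octamer, or its reverse complement in capitals. The NANOG window is chr12:7789257-7789313 and the SOX2 window chr3:181711800-181711856.
NANOG: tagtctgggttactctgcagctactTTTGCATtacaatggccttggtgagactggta
SOX2: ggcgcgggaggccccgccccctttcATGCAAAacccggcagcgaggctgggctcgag
The matches start 120 bases before the start site of NANOG and 100 bases before that of SOX2. The match in NANOG runs into a longer composite of OCT4 and SOX2 letters (CATTGT, 1 free letter and ATGCAAA, either strand), which 2 of 10311 promoters of tested genes held. The composite stood in 1 of 565 promoters of genes at least 16-fold higher in H9 and in 0 of 313 at least 16-fold lower. These counts are too few to compare. ATGCAAA and the full octamer were no rarer in promoters of genes on the HEK293T side. ATGCAAA stood in 28 of 565 promoters of genes at least 16-fold higher in H9 (4.96%), in 21 of 313 of those at least 16-fold lower (6.71%) and in 3.05% of all 10311, each 300 bases long. The full octamer ATGCAAAT, which contains ATGCAAA, stood in 3.19% of both sets and in 1.46% of all.

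Surface, secreted and signalling proteins of pluripotent cells were higher in H9 as broadly. Of 31 tested, 27 were higher and 1, the growth factor receptor FGFR3, was lower; the median log2 difference was 4.78 and 4.77 with genes at 0 in a line set to their bound. THY1, the surface glycoprotein CD90, read 375 and 364 CPM in H9 with no read in HEK293T (at least 2457-fold higher). CD24, a surface sialoglycoprotein, read 763 and 698 CPM in H9 and 1.1 and 0.782 in HEK293T. SFRP2, a secreted WNT antagonist, read 773 and 609 CPM in H9 and 0.183 and 0.223 in HEK293T. CRIPTO, the co-receptor of Nodal, read 37 and 45.1 CPM in H9 and had no read in HEK293T (at least 268-fold higher). CRABP1, a retinoic acid carrier, and PROM1, the surface protein CD133, read 698 and 844 CPM and 124 and 126 CPM in H9 and fewer than 4 reads in all in HEK293T.

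Epithelial genes were higher in H9. Of 32 tested genes of epithelial junctions and keratins, 28 were higher by at least 2-fold and 1, the desmosomal plakin DSP, was lower, with a median log2 difference of 5.02 (4.85 with bounds). Over the settings the median ran from 3.06 to 5.23, the lowest with a mean count of at least 50, which tests 21 of these genes. CLDN6, a tight junction claudin of embryonic epithelia, read 494 and 489 CPM in H9 and 2.38 and 3.35 in HEK293T (log2 difference 7.43 ± 0.20, SE; adjusted p = 4.71e-22). SPINT1, an inhibitor of membrane proteases, read 173 and 197 CPM in H9 and 1.1 and 1.23 in HEK293T. KRT19, a simple epithelial keratin, read 224 and 229.8 CPM in H9 against 1 read in all in HEK293T. ESRP1 and ESRP2, the splicing factors of epithelial cells, read 182 and 236 CPM and 42.3 and 38.8 CPM in H9, and all 4 HEK293T values lay below 1 CPM. Most of these genes were named for having the largest differences of the list, so their wide separation follows from that choice.

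The classical cadherins moved unequally. CDH1, the epithelial cadherin, read 194 and 303 CPM in H9 and 2.01 and 2.23 in HEK293T (log2 difference 6.86 ± 0.25, SE; adjusted p = 6.06e-18), while CDH2, the neural cadherin, read 139 and 156 CPM in H9 and 117 and 107 in HEK293T, a log2 difference of 0.39 ± 0.14 (SE) with adjusted p = 0.0157 that rose to between 0.0528 and 0.162 when either HEK293T library or the second H9 library was left out. Mesenchymal genes were mixed: of 22 tested, 10 were higher and 8 lower. SPARC, a matrix glycoprotein, read 615 and 742 CPM in H9 and 21 and 21.1 in HEK293T, and AXL, a receptor kinase, read 39.5 and 41.6 CPM in H9 and 0.274 and 0.67 in HEK293T. TAGLN2, an actin-binding protein, went the other way at 46.4 and 55.3 CPM in H9 and 666 and 686 in HEK293T. The transcription factors that drive the mesenchymal switch, SNAI1, SNAI2, TWIST1, TWIST2, ZEB1 and ZEB2, were all among the genes at least 2-fold lower in H9; they were named after their values were seen.

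Matrix and adhesion genes were mostly higher in H9, 23 of 34 tested against 5 lower. ITGA6, an integrin that binds laminin, read 322 and 394 CPM in H9 and 18.6 and 18 in HEK293T (log2 difference 4.29 ± 0.16, SE; adjusted p = 1.24e-18). HSPG2, the basement membrane proteoglycan perlecan, read 164 and 230.2 CPM in H9 and 10.2 and 9.61 in HEK293T, and COL2A1, a fibrillar collagen, read 64.8 and 49 CPM in H9 and 1.92 and 2.35 in HEK293T. Actin genes were higher in 17 of 37 and lower in 3. MYL9, a regulatory light chain of nonmuscle and smooth muscle myosin, read 295 and 419.5 CPM in H9 and 0.0914 and 0.112 in HEK293T, and CNN2, a calponin, read 800.0 and 808 CPM in H9 and 30.6 and 33.2 in HEK293T.

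Markers of fibroblasts, which can grow beside stem cells as feeders or arise from them, were also higher in H9: 10 of 12 tested, against 2 lower. COL1A2, a collagen chain, read 139 and 242 CPM in H9 and 0 and 0.112 in HEK293T, and TAGLN, an actin-binding protein, read 257 and 359 CPM in H9 and 1.37 and 1.45 in HEK293T. The summed level of the 14 listed markers was 2066 and 2247 CPM in H9 and 386 and 423 CPM in HEK293T control. Of the 14, DCN, LUM and FAP had no read in H9, and FAP had none in HEK293T either. COL1A1 read 109 and 161 CPM in H9 and 13.3 and 15 in HEK293T, PDGFRB, a growth factor receptor, read 11.8 and 23.1 CPM in H9 and 0.457 and 0.447 in HEK293T, and FBLN1, a matrix protein, read 172 and 125 CPM in H9 and 22.6 and 21.5 in HEK293T. Several of these markers, THY1 and VIM among them, are also made by stem cells, and the part of other cells in the sample was not tested.

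On the HEK293T side the HOX genes stood out. Of 39 HOX genes, which assign position along the body axis, 34 were tested, and 33 were lower and 1 higher in H9 by at least 2-fold. In H9, 32 of the 39 had no read at all, so the median fitted log2 difference of -8.49 has no firm size; with genes at 0 set to their bound it was -4.57. HOXC4 read 41.7 and 53.4 CPM in HEK293T (at least 97-fold lower in H9), and HOXD11, HOXA11, HOXC9, HOXA9 and HOXD13 read 42.2 and 36 CPM, 34.3 and 36 CPM, 25.8 and 31.3 CPM, 23.4 and 31.6 CPM and 20.7 and 22.6 CPM. No H9 library had a read for any of these 6. The exception was HOXD1, which read 4.39 and 6.27 CPM in H9 and 0.183 and 0.559 in HEK293T, chosen after its values were seen. Summed over all 39 genes, HOX footprints came to 6.31 and 7.06 CPM in H9 and 472 and 525 CPM in HEK293T control.

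Regulators of kidney formation went the same way. Of 24 listed, 15 were tested, and 12 were lower and 1, PAX8, higher in H9. EYA4, TBX2 and GATA2, transcriptional regulators of the early urogenital tract and other organs, read 30.8 and 35.3 CPM, 25.3 and 25.4 CPM and 19.2 and 23.8 CPM in HEK293T and had no read in H9. WT1, the Wilms tumour regulator, read 0 and 0.392 CPM in H9 and 11.4 and 10.8 in HEK293T. Genes of the mature kidney were barely read in either line: 2 of 14 were tested, LRP2, or megalin, at 23.1 and 15.7 CPM in H9 and 85.8 and 74.8 in HEK293T, and CALB1, a calcium buffer, at 42.3 and 56.1 CPM in H9 and 0.183 and 0.447 in HEK293T. The other 12 did not pass the filter on low counts.

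Among markers of other lineages most tested members were lower in H9, but the summed levels of the ectoderm and mesoderm lists were higher in it. All of 7 endoderm genes that passed were lower in H9, of 8 tested, with GATA6 at 13.3 and 15.9 CPM in HEK293T and no read in H9 (at least 29.8-fold lower). Among mesoderm genes 6 of 8 were lower and 2 higher: BMP4, a bone morphogenetic protein, read 0.549 and 0.784 CPM in H9 and 50.5 and 57.8 in HEK293T, whereas KDR, the receptor VEGFR2, read 224 and 264 CPM in H9 and 1.28 and 2.57 in HEK293T. The 15 mesoderm genes summed to 229.7 and 271 CPM in H9 and 96.5 and 114 CPM in HEK293T control, and KDR made up most of the sum in H9. Among ectoderm and neural genes 7 of 11 were lower and 3 higher, with PAX6 at 22.1 and 24.9 CPM and EN2 at 92.5 and 93.8 CPM in HEK293T and no read of either in H9, and SOX3, a neural and stem cell factor, at 26.1 and 66.7 CPM in H9 and 1.55 and 1.34 in HEK293T. The 18 ectoderm and neural genes summed to 499 and 1144 CPM in H9 and 333 and 371 CPM in HEK293T control. Most of the H9 sum was NES, the intermediate filament nestin, which was chosen after its values were seen and read 437 and 1023 CPM in H9 and 41.7 and 39 in HEK293T. Trophoblast and amnion markers showed 6 of 8 lower, with CDX2 at 25.6 and 28.5 CPM in HEK293T and none in H9. Germline genes were mostly unread, and PRAME, a tumour and germline antigen, read 93 and 86.6 CPM in HEK293T with no read in H9. KRT7 and IGFBP3 were the trophoblast markers higher in H9, of which KRT7 read 18.1 and 16.5 CPM in H9 and 0.64 and 0.112 in HEK293T.

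Neuronal and adrenal genes, a list used because HEK lines are known to express some of them, were higher in H9 in 15 of 21 tested and lower in 3. DPYSL3 and CRMP1, cytoskeletal proteins of growing axons, read 1170.2 and 971 CPM in H9 and 13.1 and 13.3 in HEK293T and 179 and 117 CPM in H9 and 0.914 and 0.447 in HEK293T. CHGA, the granule protein chromogranin A, read 235 and 221 CPM in H9 and 0.914 and 1.12 in HEK293T. The 3 lower genes were NEFL, NEFM and HAND2. The neurofilament genes NEFM and NEFL, chosen after their values were seen, read 16.7 and 16.5 CPM in H9 and 165 and 161 in HEK293T and 18.9 and 14.9 CPM in H9 and 103 and 105 in HEK293T.

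**Figure D3:**
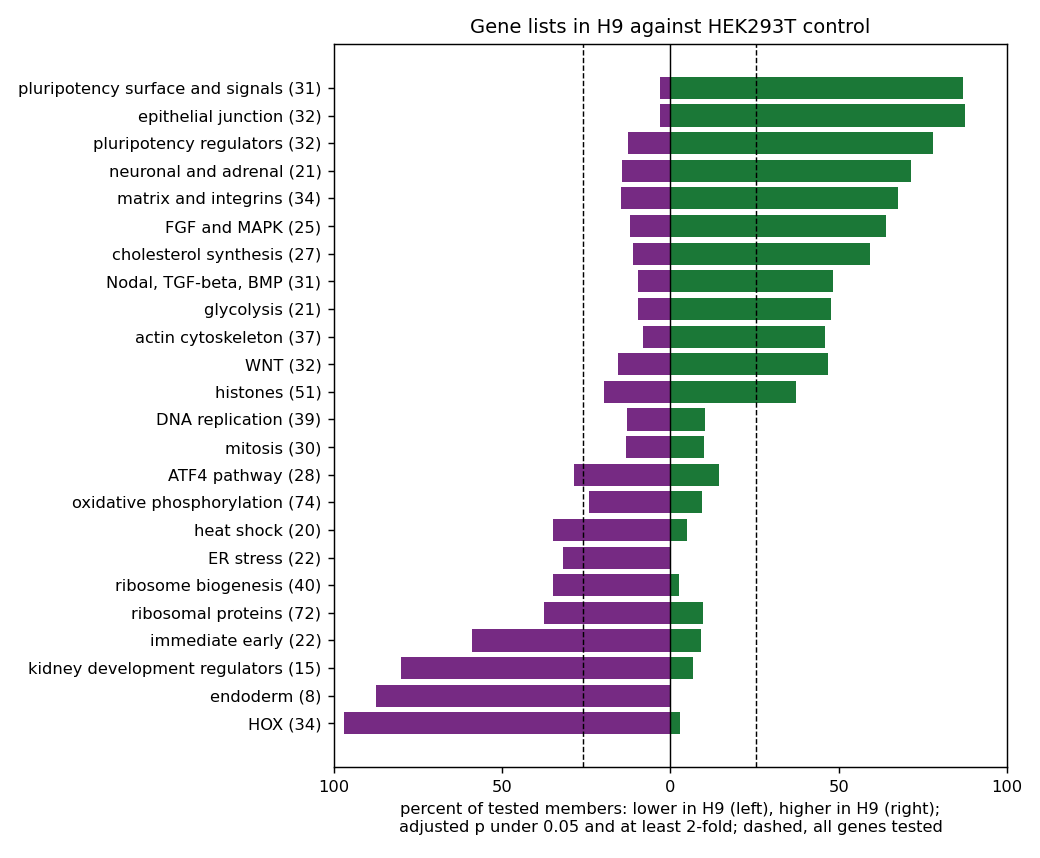
Percent of tested members of 24 of the 49 gene lists that were lower (left, purple) or higher (right, green) in H9 than in HEK293T control at an adjusted p under 0.05 and at least 2-fold; numbers in brackets are members tested and dashed lines mark all genes tested (26% lower, 25.5% higher). Of the lists shown, the pluripotency and epithelial lists reach furthest right and the HOX list furthest left.

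The genes of largest fitted difference add to these groups. On the H9 side NLGN4X, a synaptic adhesion protein, read 212 and 225 CPM with no read in HEK293T (at least 1444-fold higher), and UNC5D, a netrin receptor, read 76 and 77.6 CPM with none (at least 508-fold higher). ANOS1, a matrix protein of migrating neurons, LRRN1, a leucine-rich membrane protein, NLRP2, a protein of the oocyte and early embryo, and CNMD, a cartilage protein, read 362 and 345 CPM, 338 and 354 CPM, 306 and 303 CPM and 260.4 and 238 CPM in H9 against 1 read each in all of HEK293T control. On the HEK293T side AMBN, the enamel protein ameloblastin, read 91.5 and 103 CPM with no read in H9 (at least 199-fold higher), and NRN1, a neurite growth factor, read 79.8 and 93.2 CPM with none (at least 177-fold higher). HEY1, a Notch target repressor, read 1.1 and 0.392 CPM in H9 and 501 and 521 in HEK293T (log2 difference -9.27 ± 0.27, SE; adjusted p = 2.84e-21). NDRG1, a protein induced by hypoxia and stress, read 1.1 and 1.18 CPM in H9 and 205 and 224 in HEK293T, and PCDH9, a protocadherin, read 0.823 and 0.392 CPM in H9 and 157 and 147 in HEK293T. ZNF503, POU4F1, FOXC1, ISL2 and MEF2C, all transcription factors or cofactors of development, had 1 to 3 reads in all in H9.

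Of 16 pairs of related genes, 15 could be tested; by adjusted p alone, both members passed in the same direction in 11 and in opposite directions in 3, and in 1 pair a member did not pass. Of all genes, 75.1% passed that cut. The opposite pairs were LIN28A and LIN28B, FGFR3 and FGFR4, and TET1 and TET3. The log2 differences of TET1 and TET3 were small, 0.56 ± 0.18 (SE) and -0.58 ± 0.24 (SE), and each gene failed the threshold under some alternatives. LIN28B, the paralog of LIN28A, read 40.1 and 31.4 CPM in H9 and 191 and 189 in HEK293T (log2 difference -2.40 ± 0.16, SE; adjusted p = 4.21e-13), against the direction of LIN28A. DNMT3A was higher in H9 along with DNMT3B, at 249 and 294 CPM in H9 and 14.2 and 12.3 in HEK293T. FGFR1 read 209 and 171 CPM in H9 and 26.1 and 24.9 in HEK293T and FGFR2 63.7 and 49 CPM in H9 and 23.1 and 17.8 in HEK293T, whereas FGFR3 read 4.67 and 4.71 CPM in H9 and 29.4 and 28.5 in HEK293T and FGFR4 40.1 and 34.9 CPM in H9 and 23 and 19.4 in HEK293T. SALL4 and SALL2, zinc finger factors of early embryos, were both higher in H9, at 338 and 373 CPM in H9 and 42 and 43 in HEK293T and 484 and 466 CPM in H9 and 38.7 and 40.7 in HEK293T. CCND2, a G1 cyclin, read 235 and 322 CPM in H9 and 61.2 and 60.1 in HEK293T, while CCND1 read 51 and 135 CPM in H9 and 41.2 and 46.6 in HEK293T and did not pass (adjusted p = 0.213), its H9 libraries lying far apart.

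In the FGF and MAPK list 16 of 25 were higher and 3 lower. Among the members higher in H9, DUSP6, a phosphatase of ERK, read 285 and 204 CPM in H9 and 0.366 and 1.01 in HEK293T, SPRY4, a feedback inhibitor, read 65.6 and 46.7 CPM in H9 and 0.183 and 0 in HEK293T, and the ETS factors ETV4 and ETV5 read 71.9 and 67 CPM in H9 and 0.914 and 1.68 in HEK293T and 74.9 and 91.4 CPM in H9 and 1.55 and 1.45 in HEK293T. EGR1, an immediate target of the same pathway, went the opposite way, at 5.21 and 2.74 CPM in H9 and 455 and 493 in HEK293T. The lines did not overlap in any of these genes, nor in most genes tested (H9 wholly above in 42.6%, wholly below in 44.3%).

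In the Nodal, TGF-beta and BMP list 15 of 31 were higher and 3 lower. INHBE, an activin subunit, read 29.4 and 49.4 CPM in H9 and 0.731 and 0.894 in HEK293T, the ligand GDF3 read 14.3 and 23.5 CPM in H9 and 0.0914 and 0 in HEK293T, and follistatin (FST), which binds activin, read 38.7 and 43.5 CPM in H9 and 0.823 and 0.559 in HEK293T. In the WNT list 15 of 32 were higher and 5 lower, and the secreted inhibitors SFRP1 and DKK3 read 808 and 901 CPM in H9 and 14.8 and 15.3 in HEK293T and 28.8 and 38.8 CPM in H9 and 1.28 and 0.894 in HEK293T. TCF7L1, a repressor of WNT targets, read 166 and 119 CPM in H9 and 4.3 and 3.58 in HEK293T. RNF43, which removes WNT receptors, read 0 and 0.392 CPM in H9 and 28.1 and 23.6 in HEK293T. Notch and Hedgehog genes split, 6 of 20 higher and 8 lower, and the sign of their median changed with the setting, from -0.26 to 0.13.

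Stress response groups differed in direction, and here arsenite, which only the HEK293T labels name, cannot be told apart from the line. Immediate early genes, which cells transcribe within minutes of a stimulus, were lower in 13 of 22 and higher in 2, with a median log2 difference of -1.44. FOS read 7.41 and 10.2 CPM in H9 and 708 and 784 in HEK293T (log2 difference -6.43 ± 0.20, SE; adjusted p = 7.57e-21), and FOSB 0.549 and 0 CPM in H9 and 50.3 and 63.7 in HEK293T. JUN read 15.9 and 54.1 CPM in H9 and 1115 and 1115 in HEK293T, with a wide error because its H9 libraries differed (log2 difference -5.07 ± 0.68, SE; adjusted p = 0.0119). JUNB and DUSP1, a phosphatase of stress kinases, read 1.65 and 1.96 CPM in H9 and 22 and 33.7 in HEK293T and 11.3 and 10.2 CPM in H9 and 98.3 and 123 in HEK293T. For all 5 the HEK293T libraries lay above those of H9, which also held for 44.3% of all genes tested.

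The pathway of the transcription factor ATF4, which cells translate when eIF2 is phosphorylated under stress, held differences both ways. Of 28 tested, 4 were higher and 8 lower, against 25.5% and 26% of all genes. The median was -0.13 and ranged from -0.22 to 0.14 over the settings. Of the members lower in H9, ATF4 itself read 17.6 and 11.4 CPM in H9 and 672 and 707 in HEK293T (log2 difference -5.53 ± 0.19, SE; adjusted p = 7.19e-20), PPP1R15A, or GADD34, the phosphatase subunit that reverses eIF2 phosphorylation, read 3.02 and 7.06 CPM in H9 and 256 and 268 in HEK293T, DDIT3, or CHOP, read 4.12 and 1.18 CPM in H9 and 44.2 and 53.9 in HEK293T, and ATF3 read 8.78 and 17.6 CPM in H9 and 84.7 and 91 in HEK293T. Of those higher, PCK2, mitochondrial phosphoenolpyruvate carboxykinase, read 175 and 134 CPM in H9 and 14.5 and 13.3 in HEK293T, PSAT1, of serine synthesis, read 366 and 325 CPM in H9 and 146 and 147 in HEK293T, and the lipoprotein receptor VLDLR read 47.5 and 60.0 CPM in H9 and 4.48 and 4.47 in HEK293T. Other metabolic members were lower: CTH, of cysteine synthesis, read 33.8 and 49.8 CPM in H9 and 155 and 155 in HEK293T and ALDH1L2, a mitochondrial folate enzyme, read 8.23 and 6.27 CPM in H9 and 53.2 and 45.8 in HEK293T. The groups of libraries did not overlap for any of these 9 genes. Most genes tested showed the same, with H9 wholly above in 42.6% and wholly below in 44.3%. One-carbon and methionine genes, a list that shares PSAT1, CTH, ALDH1L2 and other members, were higher in 4 of 22 and lower in 4.

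**Figure D4:**
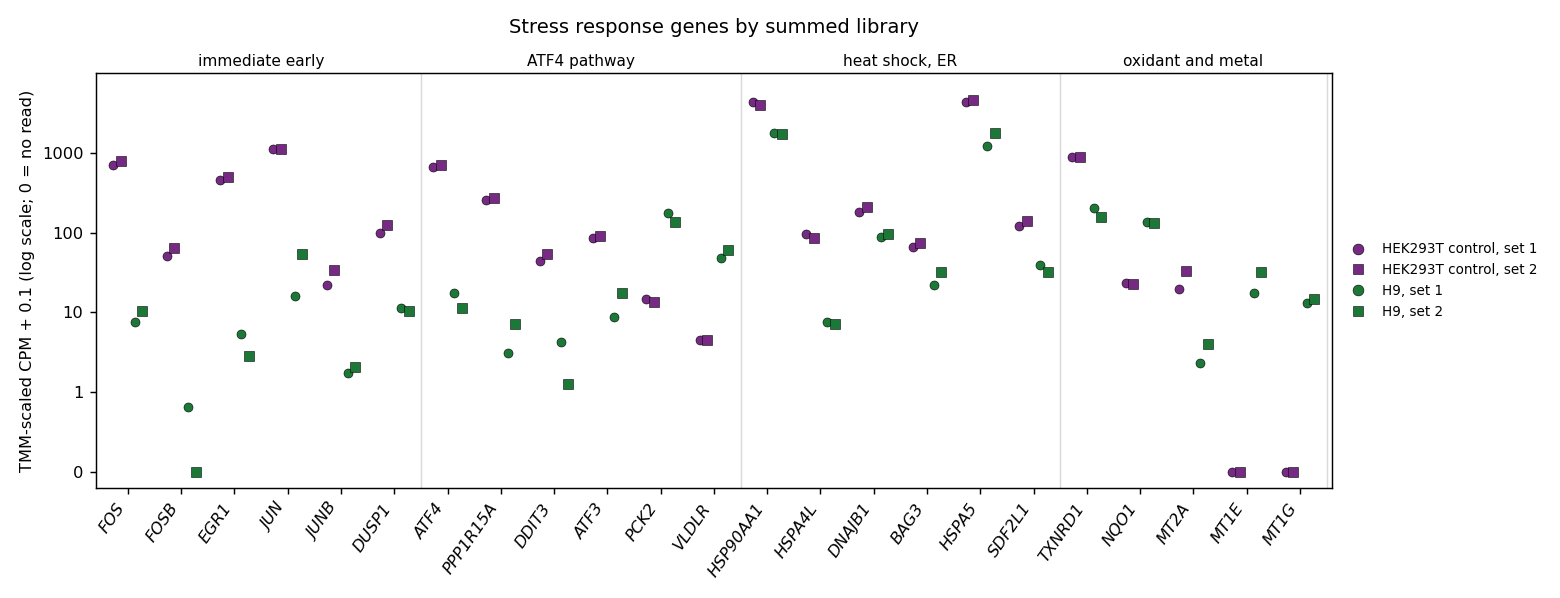
TMM-scaled CPM plus 0.1 (y axis, log scale) of stress response genes in each of the 4 summed libraries, HEK293T control in purple and H9 in green, circles for set 1 and squares for set 2. FOS, EGR1, JUN, ATF4 and PPP1R15A are at 256 CPM or more in HEK293T control and below 55 CPM in H9, while PCK2, VLDLR, NQO1, MT1E and MT1G are higher in H9.

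Chaperones differed less. Heat shock genes were lower in 7 of 20 and higher in 1 (median -0.65), with HSPA4L, an HSP110 family chaperone, at 7.41 and 7.06 CPM in H9 and 97.3 and 85.6 in HEK293T and HSP90AA1, the inducible HSP90, at 1752 and 1709 CPM in H9 and 4362 and 3939.5 in HEK293T. Genes of the ER stress response were lower in 7 of 22 and higher in none by 2-fold (median -0.72), with 14 lower and 3 higher by adjusted p alone. HSPA5, the ER chaperone BiP, read 1203 and 1781 CPM in H9 and 4310.0 and 4612 in HEK293T, and SDF2L1, an ER cofactor, read 39.2 and 31.8 CPM in H9 and 119.7 and 140.1 in HEK293T.

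Oxidant and metal response genes were split, 8 of 21 higher and 6 lower. TXNRD1, thioredoxin reductase and a target of NRF2, read 200.3 and 157 CPM in H9 and 891 and 879 in HEK293T, but NQO1, a quinone reductase under the same factor, read 136 and 132 CPM in H9 and 22.9 and 22.6 in HEK293T. Metallothioneins, small proteins that bind metals including arsenic, were split too. MT2A read 2.2 and 3.92 CPM in H9 and 19.6 and 33.3 in HEK293T and MT1X, named after its values were seen, 43.9 and 41.6 CPM in H9 and 111 and 146 in HEK293T, whereas MT1E and MT1G read 17.6 and 31.8 CPM and 12.9 and 14.5 CPM in H9 with no read in HEK293T (at least 155-fold and at least 89.9-fold higher). Metallothionein genes are near-identical to each other, so reads between them may have been lost or misassigned.

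The promoters of the metallothioneins that were lower in H9 are shown because their metal response elements are the known site of control by metals. Capitals mark matches to TGCACNC or TGCGCNC on either strand, in RefSeq's GRCh38.p14 sequence, plus strand, at chr16:56608384-56608583 for MT2A and chr16:56682295-56682448 for MT1X.
MT2A: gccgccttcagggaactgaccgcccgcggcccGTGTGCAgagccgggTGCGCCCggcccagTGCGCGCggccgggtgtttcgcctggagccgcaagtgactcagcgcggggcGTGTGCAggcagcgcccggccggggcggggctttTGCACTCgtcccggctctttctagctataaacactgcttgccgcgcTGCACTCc
MT1X: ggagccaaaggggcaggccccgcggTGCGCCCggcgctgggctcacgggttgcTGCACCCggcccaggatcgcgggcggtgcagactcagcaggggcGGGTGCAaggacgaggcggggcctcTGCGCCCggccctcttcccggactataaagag
The windows hold 6 and 4 matches. Single matches to these short letters are common: 39.7% of all 10311 promoters held at least 1, against 35.8% of those of genes at least 16-fold higher in H9 and 34.2% of those at least 16-fold lower. Promoters of MT1E and MT1G are not shown.

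The other letter searches of stress elements gave low shares. The heat shock element, searched as GAA, TTC and GAA with 2 free letters between neighbours, stood in none of the promoters of either 16-fold set and in 0.262% of all. The cyclic AMP element TGACGTCA stood in 2.12% of the higher set, 2.88% of the lower set and 3.39% of all, and the element ATTGCATCA of CEBP and ATF factors in 0.177%, 0.319% and 0.107%. The CArG box of serum response factor stood in 2.48%, 1.60% and 1.09%. In all, 8 letter patterns were searched, on both strands.

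Genes of the ribosome took a smaller share of the footprints of H9. Of 72 ribosomal protein genes tested, 27 were lower and 7 higher by at least 2-fold, with a median log2 difference of -0.59 (-0.74 to -0.40 over the settings). Their summed level was 30683 and 26740 CPM in H9 and 59122 and 67177 CPM in HEK293T control. RPS3 read 1056 and 894 CPM in H9 and 5432 and 5879.8 in HEK293T (log2 difference -2.54 ± 0.14, SE; adjusted p = 2.14e-15), and RPL5 read 248 and 209 CPM in H9 and 1425 and 1185 in HEK293T. RPL29 read 54.9 and 71 CPM in H9 and 6.58 and 9.83 in HEK293T, the other way. Ribosomal protein genes have many near-identical pseudogenes, and these counts leave out reads with more than 1 alignment. Rows naming no gene, which are mostly such reads, were a larger share in H9, as given above. How many of them came from ribosomal protein genes was not tested, nor was their part in the result.

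Other genes whose mRNAs share the 5′ terminal oligopyrimidine motif, through which growth signals control translation, also had a negative median. Of 18 tested, 6 were lower and 1 higher, against 26% and 25.5% of all genes, with a median log2 difference of -0.73. EEF1A1, the main elongation factor, read 68.9 and 75.3 CPM in H9 and 1015 and 949 in HEK293T (log2 difference -3.77 ± 0.15, SE; adjusted p = 2.86e-18), and NPM1, a nucleolar chaperone, read 121 and 193 CPM in H9 and 537 and 683 in HEK293T. Whether reads with more than 1 alignment, left out of these counts, lowered the levels of EEF1A1 and NPM1 was not tested. VIM, the intermediate filament vimentin, read 957 and 934 CPM in H9 and 333 and 368 in HEK293T. Ribosome biogenesis factors were lower in 14 of 40 and higher in 1, with POLR1A, the largest subunit of RNA polymerase I, at 256 and 258 CPM in H9 and 1297 and 1185 in HEK293T and RRP9, a small nucleolar RNA partner, at 105 and 101 CPM in H9 and 25.9 and 28.6 in HEK293T. Among initiation factors 10 of 39 were lower, near the 26% of all genes, and 6 higher, against 25.5%. EIF4A2, a helicase, read 126 and 123 CPM in H9 and 849.7 and 852 in HEK293T. EIF4EBP2, a repressor of eIF4E, read 94.1 and 54.5 CPM in H9 and 10.6 and 8.94 in HEK293T. NCBP2, the partner of CBP80 in the nuclear cap-binding complex, was chosen after its values were seen and read 76.8 and 87 CPM in H9 and 190.4 and 200.1 in HEK293T, against the direction of NCBP1.

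Histone genes took about the same share in both lines but through different members. Their summed level was 29157 and 26340 CPM in H9 and 29581 and 32249 CPM in HEK293T control, while of 51 tested 19 were higher and 10 lower. H1-5, a linker histone, read 1488 and 1381 CPM in H9 and 0 and 0.223 in HEK293T, H3C8 read 763 and 704 CPM in H9 and 0.0914 and 0 in HEK293T, H3C11 read 768 and 639 CPM in H9 and 0.0914 and 0.112 in HEK293T and H4C9 read 493 and 426 CPM in H9 and 0.183 and 0.223 in HEK293T. In all, 11 histone genes were below 1 CPM on average in HEK293T and at 50 CPM or more in H9, and 0 the other way round; these 11 together held 4856 and 4390 CPM in H9 and 3.38 and 2.12 CPM in HEK293T. Copies of 1 histone type are near-identical in sequence, so the split of reads among them is uncertain.

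Metabolic genes leaned towards H9 in lipid synthesis and glucose uptake. Of 27 cholesterol synthesis genes 16 were higher and 3 lower, with a median of 1.15. LSS, which closes the sterol rings, read 197 and 174 CPM in H9 and 43.5 and 44.5 in HEK293T, and SREBF1 and SREBF2, the factors that control the pathway, read 146 and 162 CPM in H9 and 29.3 and 26 in HEK293T and 195 and 169 CPM in H9 and 52.3 and 52.6 in HEK293T. Of 18 fatty acid genes 7 were higher and 3 lower, with FASN, fatty acid synthase, at 2130.1 and 2156 CPM in H9 and 477 and 449 in HEK293T, FADS2, a desaturase, at 923 and 949 CPM in H9 and 44.7 and 41.5 in HEK293T, and CPT1A, the gate of fatty acid oxidation, at 3.84 and 9.41 CPM in H9 and 84.4 and 87.6 in HEK293T.

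In glycolysis 10 of 21 were higher and 2 lower, with a median of 0.81. The glucose transporters SLC2A3 and SLC2A1 read 561 and 663 CPM in H9 and 25.3 and 29.6 in HEK293T and 417 and 431 CPM in H9 and 47.4 and 45.9 in HEK293T. ENO2, an enolase, read 182 and 264 CPM in H9 and 26.6 and 26.6 in HEK293T and its relative ENO1 3265 and 3122 CPM in H9 and 1858 and 1781 in HEK293T, while PGK1, phosphoglycerate kinase, and LDHA, lactate dehydrogenase A, were lower in H9 at 472 and 469.7 CPM in H9 and 1831 and 1844 in HEK293T and 431 and 525 CPM in H9 and 1319 and 1553 in HEK293T. Nuclear genes of oxidative phosphorylation were lower in 18 of 74, near the 26% of all genes, and higher in 7, against 25.5%. Their median ran from -0.41 to 0.02 over the settings. NDUFB3, a complex I subunit, read 37.6 and 36.9 CPM in H9 and 215 and 222 in HEK293T, and NDUFV2, another, 153 and 155 CPM in H9 and 16 and 17.7 in HEK293T.

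Cell division genes differed little as groups. Of 39 DNA replication genes 4 were higher and 5 lower, and of 30 mitosis genes 3 were higher and 4 lower, shares below those of all genes. MCM10, a replication initiation factor, read 147 and 138 CPM in H9 and 824 and 764 in HEK293T, and MCM5, a subunit of the replicative helicase, read 684 and 616 CPM in H9 and 271 and 279.9 in HEK293T. Cell cycle regulators were higher in 11 of 32 and lower in 6. Of those lower in H9, CDKN2A, which encodes the inhibitors p16 and ARF, read 71.2 and 89.1 CPM and CDKN2C, the inhibitor p18, 59.1 and 63.7 CPM in HEK293T, with no read of either in H9 (at least 164-fold and at least 126-fold higher in HEK293T). Of those higher, the inhibitor CDKN1C, or p57, read 17 and 31.8 CPM in H9 and 4.3 and 4.36 in HEK293T, the kinase WEE1, which delays mitosis, read 155 and 239.9 CPM in H9 and 55.6 and 42.1 in HEK293T, and the transcription factor E2F5 read 58.5 and 45.1 CPM in H9 and 5.3 and 4.02 in HEK293T. Targets of p53, which large T antigen binds in HEK293T, were higher in 10 of 26 and lower in 7: CCNG1, an atypical cyclin, read 169.6 and 189 CPM in H9 and 37.6 and 28.4 in HEK293T and GADD45A, a damage response gene, 9.61 and 13.3 CPM in H9 and 46.3 and 60.0 in HEK293T.

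Chromatin and RNA regulators also differed by gene. Of 21 Polycomb genes 4 were higher and 7 lower: CBX8, a chromobox subunit, read 0.823 and 1.57 CPM in H9 and 68.7 and 76.1 in HEK293T, SUZ12, a core subunit of PRC2, 23.6 and 18.8 CPM in H9 and 108 and 90.3 in HEK293T, and PHC1, a PRC1 subunit of stem cells, 85.6 and 89.8 CPM in H9 and 6.58 and 5.7 in HEK293T. TET2, a DNA demethylase, read 3.02 and 1.96 CPM in H9 and 34.9 and 31.7 in HEK293T. Among splicing regulators 9 of 26 were higher and 4 lower: RBM47 read 87.3 and 105 CPM in H9 and 4.85 and 6.26 in HEK293T, while MBNL1 and MBNL2, which promote splice forms of differentiated cells, read 3.02 and 1.96 CPM in H9 and 75.5 and 72.2 in HEK293T and 0.549 and 0 CPM in H9 and 28.2 and 33.1 in HEK293T. Both MBNL genes were far lower in H9, with no overlap between the lines. H9 lay wholly below HEK293T in 44.3% of all genes tested.

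Genes of innate defence were split, 13 of 29 tested higher and 10 lower. Of the 38 listed, 5 lie in the stretch around POU5F1 and could not be read. IFITM3 and BST2, membrane proteins that restrict viruses, read 158 and 125 CPM in H9 and 0.731 and 0.447 in HEK293T and 140.2 and 149 CPM in H9 and 0.914 and 2.01 in HEK293T, and IFITM1 read 57.1 and 66.3 CPM in H9 and 3.47 and 4.25 in HEK293T. IFIT5, an interferon-induced RNA-binding protein, was lower at 11.3 and 8.63 CPM in H9 and 52.1 and 49.2 in HEK293T.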

How the data were processed

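Footprints of 8 libraries were compared. Per the labels' protocols, RNA was taken with TRIzol and made into libraries with a TruSeq small RNA kit. The build was hg19, with STAR 2.5.2b and cutadapt among the tools, per the submitters' processing notes. What counted the reads, on which strand and with which annotation is not given in the sources used here, so antisense partners that overlap cannot be separated. The deposited values are raw counts of reads per coding sequence, with no normalization. Rows naming no gene were left out. RefSeq's GRCh38.p14 table, used for names and gene order only, named 18888 of 19305 accessions, and the first promoter it lists for a gene was searched.

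Libraries of 1 set and line were summed and tested in R 4.3.3 with edgeR 4.0.16 (filterByExpr, TMM, estimateDisp, robust glmQLFit, glmQLFTest, two-sided), 2 against 2 with 2 residual degrees of freedom, with Benjamini-Hochberg adjustment over all 12617 genes. Gene groups are given by counts and medians, with no set test. Tested on simulated counts (11683 genes), the fit recovered 56.2% of 112 genes changed 2-fold and 96.6% of 88 changed 4-fold, and 8.07% of its calls were false, above the nominal rate. The simulation changed only these genes, far fewer than the 9481 called, and used a fixed dispersion that was not estimated from the data. Its rates of recovery and of false calls therefore do not carry over to the results. The alternatives were 2 other scalings, TMM without the 20 most abundant genes, 2 count filters, DESeq2 1.42.0, edgeR's legacy option, 3 other uses of the libraries, the set number as a block, 2 uses of the HEK293T eIF2A siRNA libraries and leaving out each summed library. The numbers do not pair the sets across lines: deviations of set 1 in H9 and HEK293T correlated at r = -0.0112 over genes. Set and shRNA of the H9 libraries follow the titles, and alternatives that use only the H9 control shRNA libraries rest on them.

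Named genes are the 5 markers, EIF2A, NCBP1 and EIF4E, and 16 pairs of related genes. They include the 15 largest rises and 15 largest falls with a mean of at least 50 CPM in the higher line and no overlap. Each list adds up to 6 called members, those of largest absolute log2 difference with a mean of at least 10 CPM in the higher line. Other members, named where a count was 5 or fewer or to single out a feature, were chosen after their values were seen. Some genes that the rules take are not reported here. Members, the 49 lists and the comparisons were chosen with earlier results of these data known.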

Additional observations from a re-analysis of the deposited data

How the results depend on the processing

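Under the 17 alternatives, 7203 to 10079 genes were called, against 9481. The number higher by at least 2-fold ran from 2055 to 3550 and the number lower from 2227 to 3678. The 2055, with a mean count of at least 50, was the only count to move by over 1.5 times; that filter tests 9454 genes. Leaving out each summed library in turn gave 8206 to 9137 calls, 2916 to 3158 genes higher and 3027 to 3323 lower. With the set number as a replicate block 9307 genes were called, and DESeq2 called 8266. Calls shared with each alternative had the same direction, except 2 genes with the HEK293T eIF2A siRNA libraries in place of the controls. Of 49 list medians, 8 changed sign under some alternative, those of mesenchymal, Notch and Hedgehog, replication, mitosis, histone, ATF4, oxidative phosphorylation and SOX and POU genes. Library sizes alone moved the median of all genes from -0.03 to 0.11. Of 303 named genes tested, 8 changed side of the threshold under some alternative and none changed direction past it; EIF2A, CDH2, CCND1, LDHB, PTBP2, TET1 and TET3 were among the 8. EIF2A passed without the first H9 set (log2 difference -0.48, adjusted p = 0.0207), and CCND1 passed under the block (0.94, adjusted p = 0.000229) and without that set (1.65). Depth limits the low end: 3 reads stand for 1.6 to 3.2 CPM in single H9 libraries and 0.527 to 0.693 CPM in single HEK293T control libraries, so genes lower in H9 are bounded less tightly than genes higher in it.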

Other observations

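Genes at 0 in 1 line and well read in the other were counted over the whole table. There were 31 genes with no read in HEK293T control and at least 20 CPM in H9, and 25 with no read in H9 and at least 20 CPM in HEK293T control. The HEK293T eIF2A siRNA libraries, which the comparison does not use, give a second reading of that line: 25 of the 31 had at most 3 reads there and 12 had none, and each of the 25 genes unread in H9 was read there. Genes unread in H9 were mostly developmental transcription factors, among them NR2F2, TFAP2A, DLX2, DLX1 and EYA4, named after their values were seen.

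MGMT, a DNA repair protein that removes alkyl groups from guanine, was chosen after its values were seen. It read 34.9 and 29.4 CPM in H9 with no read in HEK293T (at least 216-fold higher).

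Neighbouring genes sometimes differed together. Over 488 runs of 25 tested neighbours, in RefSeq's order, the median log2 difference of a run lay between -0.93 and 0.77 in the middle 90% of runs. The highest run, on chromosome 5 from NDUFA2 to PCDHGA10, had a median of 4.76 and held 18 clustered protocadherins, cell adhesion proteins of neurons, of which 17 were at least 2-fold higher in H9 and none lower. Those 18 genes summed to 206 and 261 CPM in H9 and 4.94 and 3.91 CPM in HEK293T control. Over all 22 clustered protocadherins tested, 20 were higher and 1 lower, and the sums were 259.9 and 324 CPM in H9 and 25.1 and 28.7 CPM in HEK293T control. Genes of the alpha and gamma clusters share exons at their 3′ ends, so reads there cannot be placed in 1 of them. The next highest, at 2.51, ran on chromosome X from GYG2 to GEMIN8 and holds NLGN4X and ANOS1. The lowest, at -2.33 on chromosome 7, holds the HOXA genes. A run on chromosome 19 from CADM4 to TOMM40 held 17 zinc finger genes, of which 14 were at least 2-fold lower in H9 and none higher, with a sum of 78.8 and 73.3 CPM in H9 and 451 and 442 CPM in HEK293T control. Over all 422 ZNF genes tested, 79 were higher and 138 lower.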
